A study of Mus musculus with 20 samples.

Results

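Mitosis and spindle genes were followed across mouse breast tumours that differ in their response to olaparib. The set held 42 genes picked by name for their roles in mitosis, not by a rule on measured values, though earlier results of these data were known. All 42 were among the 16411 genes of the deposited table, each on 1 row, and all passed the filter on low values. The question the study's design states is how tumours come to resist olaparib, a drug that inhibits the PARP enzymes of DNA repair. MDA594 is a mouse tumour that responds to such drugs, and MDA594OR1 and MDA594OR2, called OR1 and OR2 here, are resistant tumours whose names derive from it.

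All tumours were grown as allografts, that is, as mouse tumours carried in other mice, so host cells of the same species contribute RNA. Each of the 3 tumours was sampled from control mice, which the table header calls vehicle and the design text calls untreated, and from mice given olaparib, at a dose and for a time whose units are not given in the sources used here. Host strain, age and driver alleles of the tumours are likewise not given in them. Control MDA594 had 4 libraries, treated MDA594 had 3, control OR1 had 3, treated OR1 had 4, control OR2 had 2 and treated OR2 had 3. The last code of a library's title was shared by 2 libraries in 5 cases and was taken to mean 1 host mouse, which the labels do not spell out. Both control OR2 libraries carry the same code, so that group may be 1 animal. A further library, whose labels disagree on its treatment, was left out. The p-values below rest on library-to-library spread, which may be technical in part.

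Libraries held 36.8 to 118 M reads, and the fewest reads of a member in any library was 555. Counting error was thus small beside the spread between libraries. The unit throughout is log2 CPM, counts per M reads on a log2 scale, as the authors deposited it from poly(A) RNA. The tumour label was set beside general epithelial markers, of which 11 of 13 were in the table. They cannot check a breast origin. Their mean lay between 5.17 and 7.05 in every library with a group. In control MDA594, 1 of them was at 0 reads in at least 1 library, as was 1 in control OR1. Epcam lay between 8.62 and 10.37 and Krt18 between 7.96 and 9.99 in every library with a group. Reads of skeletal muscle genes stood apart in a few libraries. Their mean log2 CPM was 6.41 in treated MDA594 library 3, 1.86 in control OR1 library 1, 0.23 in control OR1 library 3 and 1.87 in treated OR1 library 3, and below 0 in the other 15.

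Mitosis is driven by the kinase Cdk1 bound to B-type cyclins, which starts chromosome condensation and spindle assembly. The spindle checkpoint delays anaphase until every kinetochore is attached to microtubules. The anaphase-promoting complex, activated by Cdc20, then marks cyclin B and securin for destruction, and cohesin is cut. Most of these genes are transcribed late in the cell cycle. Their promoters commonly carry a short element called CHR, to which the MuvB complex is recruited with B-Myb (Mybl2) or Foxm1 when the genes are active and as part of the repressive DREAM complex when cells are quiescent, and CCAAT boxes bound by NF-Y. In bulk tumour RNA, fewer cycling cells and less mitotic RNA per cell cannot be told apart.

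Promoter sequence was examined because members that vary together may share elements, and a few promoters are shown as examples of the elements present and absent. The sequences are the 150 bases before the annotated start of the named gene, from RefSeq on GRCm38.p6, written along the gene's own strand. Capitals mark the CHR (TTTGAA or TTCGAA) and the CCAAT box (CCAAT), each on either strand, so that TTCAAA and ATTGG are the same elements read from the other strand. Cdk1 (minus strand, chr10:69352913-69353062) and Ube2c (plus strand, chr2:164769779-164769928) are the mitotic kinase and an anaphase ubiquitin-conjugating enzyme. Cdc20 (minus strand, chr4:118437344-118437493) and Top2a (minus strand, chr11:99024190-99024339) are the checkpoint target and topoisomerase II alpha. Pttg1 (minus strand, chr11:43425982-43426131), which encodes securin, is shown for its lack of a match. It was also chosen as the member least like the others, though some other members without a match varied closely with the rest, as given below.
Cdk1: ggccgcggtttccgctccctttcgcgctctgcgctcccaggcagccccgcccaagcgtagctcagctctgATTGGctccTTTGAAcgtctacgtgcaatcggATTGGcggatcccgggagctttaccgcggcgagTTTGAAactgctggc
Ube2c: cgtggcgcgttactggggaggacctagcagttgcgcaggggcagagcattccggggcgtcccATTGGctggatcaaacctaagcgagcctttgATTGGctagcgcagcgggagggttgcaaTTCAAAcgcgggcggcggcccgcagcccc
Cdc20: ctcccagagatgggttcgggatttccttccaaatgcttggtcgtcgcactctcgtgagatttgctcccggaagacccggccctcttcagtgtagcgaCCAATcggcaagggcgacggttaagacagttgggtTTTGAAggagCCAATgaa
Top2a: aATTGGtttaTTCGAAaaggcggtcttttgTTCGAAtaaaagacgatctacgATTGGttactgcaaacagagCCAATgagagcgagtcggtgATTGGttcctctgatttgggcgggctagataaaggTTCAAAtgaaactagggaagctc
Pttg1: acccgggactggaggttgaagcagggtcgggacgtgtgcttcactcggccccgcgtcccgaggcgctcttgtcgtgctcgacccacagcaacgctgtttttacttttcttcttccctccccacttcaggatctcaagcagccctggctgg

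In the Cdk1 promoter a CHR lies 15 bases before the start and a pair of CCAAT boxes upstream of it. The Ube2c, Cdc20 and Top2a promoters hold a CHR at 29, 18 and 23 bases before the start, again with CCAAT boxes close by. The Pttg1 stretch holds neither element. RefSeq windows of 300 bases, from 250 before to 50 after the start, were found for 36 of the 42 members, as 38 windows. A CHR was present in 81.6% of member windows, against 19.4% of 36 windows of DNA replication genes and 19.2% of 32851 windows of all genes. A CCAAT box was present in 76.3%, 52.8% and 37.4% of them. Both were present in 71.1%, 13.9% and 7.52%. E2F-type sequences (TTTGGCGC, TTTCCCGC, TTTCGCGC or TTTGCCGC, either strand) were the reverse, at 2.63% of member windows, 38.9% of DNA replication windows and 2.26% of all. Of the 29 members with a CHR, 12 had one before the start and 17 only after it. Nuf2, Nusap1, Cenpe, Mad2l1, Pttg1, Birc5 and Ccnb1 had no match to the CHR letters. Of the 41 CHR matches, 1 overlapped a CCAAT match. GC content was 58.6% in member windows and 53.8% in all windows.

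Across the 19 libraries the members varied largely as 1 block. Of the 861 pairs of members, 849 had a positive Pearson r, with a median of 0.685. These correlations are a description over 19 libraries that share depth, tumour line and host mice, and carry no test. The members most like the mean of the others were Cdca8 (r = 0.95), the borealin subunit of the chromosomal passenger complex, and Ccna2 (0.95), cyclin A2. The checkpoint kinase Ttk (0.94), the microtubule-depolymerising kinesin Kif2c (0.94) and the checkpoint kinase Bub1 (0.93) followed, and 26 members exceeded 0.8. The least alike were Cenpe (0.56), a kinetochore motor, Mki67 (0.54), which coats mitotic chromosomes, the centromeric histone Cenpa (0.52), the kinetochore protein Cenpf (0.38) and Pttg1 (0.17). Of these, Cenpe and Pttg1 lacked a CHR match, while Mki67, Cenpa and Cenpf held the element. Among the other members without a CHR match, Mad2l1 (0.90), Nusap1 (0.88), Ccnb1 (0.85) and Nuf2 (0.85) exceeded 0.8, and Birc5 (0.59) did not. A link between the element and likeness was not tested. Outside the set, the 8 genes most like the member mean were Kif22 (0.95), a chromosome-arm kinesin, Gtse1, Ncapg, Hnrnpa3, Shcbp1, Cdca2, Fam83d and Mcm10 (0.92).

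**Figure D1:**
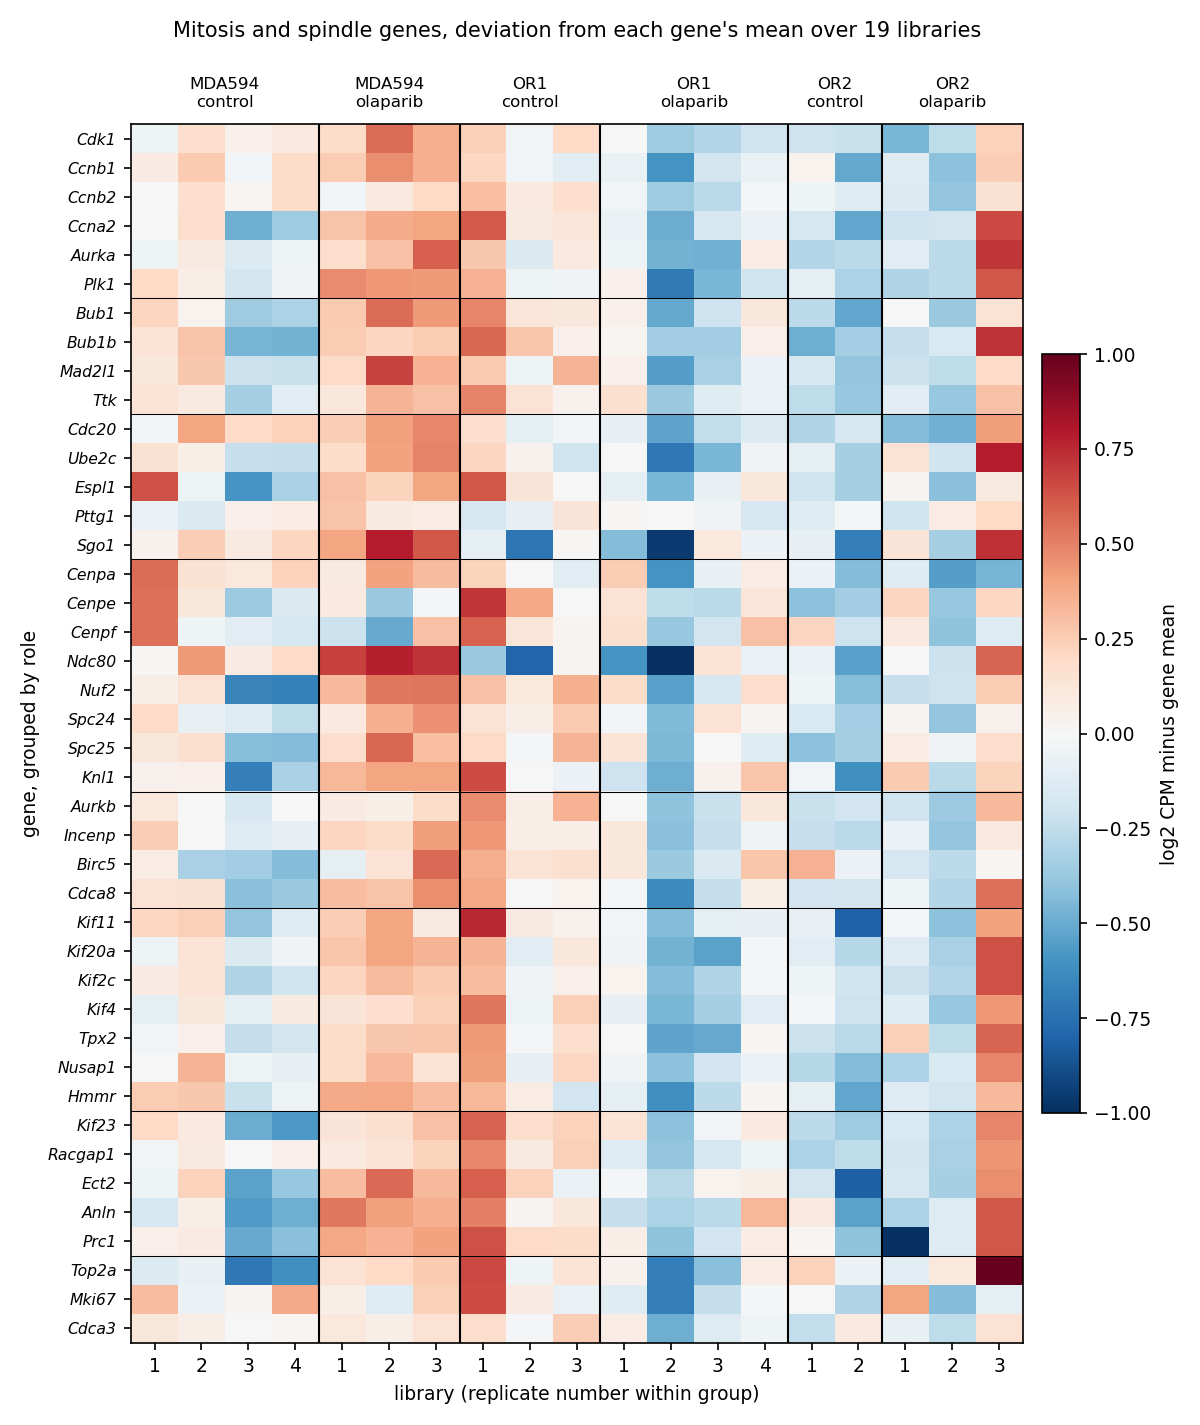
Deviation of each of the 42 members (rows, grouped by role) from its own mean over 19 libraries (columns, by group), in log2 CPM. The 3 treated MDA594 libraries and control OR1 library 1 are above the mean for 39 to 41 members, as is treated OR2 library 3, and treated OR1 library 2 and control OR2 library 2 are below it for 41 each.

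A few libraries stood apart in most members at once. In treated OR1 library 2, 41 of 42 members lay below their own mean over all libraries and 20 had their lowest value. In control OR1 library 1, 39 members lay above and 14 had their highest value, and in treated OR2 library 3 the counts were 39 and 12. The highest group mean was that of treated MDA594 for 29 members, of control OR1 for 12 and of treated OR2 for 1. The lowest was that of control OR2 for 23, treated OR1 for 12, control MDA594 for 5, and treated MDA594 and treated OR2 for 1 each.

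The mean over the 42 members was 6.19, 6.18, 5.83 and 5.92 in the control MDA594 libraries and 6.29, 6.37 and 6.41 in the treated ones. All treated MDA594 libraries thus lay above all controls. In OR1 it was 6.45, 6.08 and 6.17 in controls and 6.06, 5.59, 5.87 and 6.09 with olaparib, and here the groups overlapped narrowly with the treated libraries lower. In OR2 it was 5.94 and 5.73 in controls and 5.96, 5.79 and 6.43 with olaparib, with treated library 3 far above the rest. The pooled SD within groups was 0.21.

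**Figure D2:**
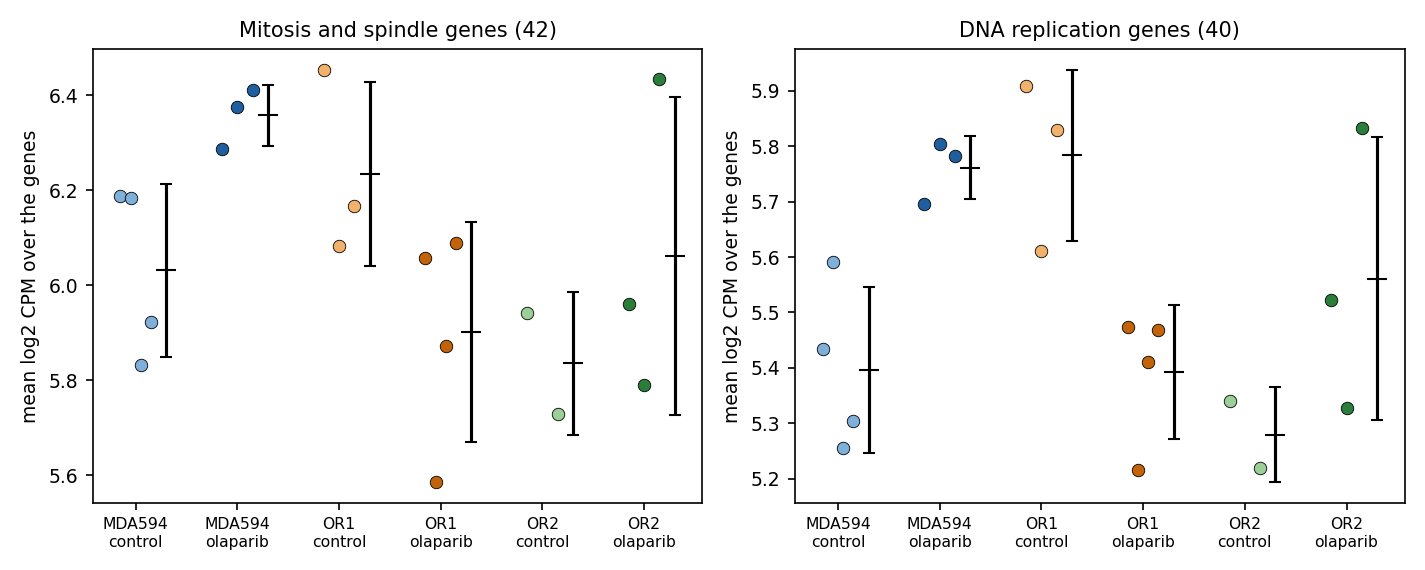
Mean log2 CPM over the 42 mitosis and spindle genes (left) and 40 DNA replication genes (right) in each library, with the group mean and SD as bars. Treated MDA594 lies above its controls, between 6.29 and 6.41 for the mitosis genes. Treated OR1, between 5.59 and 6.09 for these genes, lies mostly below its own controls, between 6.08 and 6.45, and overlaps them narrowly.

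In MDA594, most members had higher levels with olaparib, but none passed the test. In the fit across 16330 genes (limma, Benjamini-Hochberg adjustment), 38 of 42 differences were positive, with a median of 0.33 against 0.01 over all tested genes, and 0 members passed, where 0.122% of all genes did. At an unadjusted p under 0.05 there were 5 members higher and 0 lower, where 8.71% of all genes were higher and 8.07% lower. In 23 members every treated library exceeded every control, and in 0 the reverse held, against 12.7% and 12.2% of all genes. By role, the 5 cytokinesis genes had the highest median, 0.53, followed by 0.41 for the 8 centromere and kinetochore genes. Those 8 were split, with 5 positive and 3 negative, from -0.18 to 0.69. The median was 0.36 for the 6 entry kinases and cyclins and 0.25 for the 7 spindle motors and assembly factors.

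Nuf2 (ENSMUSG00000026683.15), a subunit of the Ndc80 complex that binds microtubules, was at 5.90, 5.98, 5.17 and 5.16 in controls and 6.16, 6.36 and 6.37 with olaparib. The groups did not overlap, and control libraries 3 and 4, which share a code, were the low ones. Its difference was 0.69 (SE 0.24, adjusted p = 0.168). Anln, the anillin scaffold of the cleavage furrow, was at 6.47, 6.70, 6.08 and 6.16 in controls and 7.17, 7.06 and 6.999 with olaparib. Again every treated library was higher (0.67, SE 0.27, adjusted p = 0.216). Bub1 gave 0.48 and the kinetochore subunit Spc25 gave 0.45, both without overlap. Survivin, Birc5, also gave 0.48, but its lowest treated library, at 6.83, was below control library 1, at 7.001. The exchange factor Ect2, which activates RhoA for cytokinesis, gave 0.53 (adjusted p = 0.309).

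Among members named in every comparison, Cdk1 was at 6.18, 6.40, 6.28 and 6.33 in control MDA594 and 6.41, 6.79 and 6.59 with olaparib. The groups were only just separate, and the difference was 0.30 (SE 0.17, adjusted p = 0.39). Plk1, the polo-like kinase of mitotic entry and spindle poles, was at 6.14, 6.002, 5.75 and 5.90 against 6.41, 6.37 and 6.36. Every treated library was above the controls (0.41, SE 0.23, adjusted p = 0.388). Top2a, which untangles sister chromatids, differed by 0.55 (adjusted p = 0.363) and cyclin B1, Ccnb1, by 0.23 (adjusted p = 0.606). Cdc20 gave 0.19 and Aurkb, the kinase of the passenger complex, 0.12, both with overlap. Mki67 went the other way from most members, at -0.08 (95% interval -0.63 to 0.48), as did Cenpe and Cenpf at -0.18 each.

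Within the library-name series ABA45, which holds all treated MDA594 libraries but only control libraries 3 and 4, which share a code, the median was 0.49 and 16 members passed. With a term for the title number, 7 passed. Libraries of a code were negatively correlated in both fits, at -0.30 and -0.13, against 0.404 in the fit of all libraries, and a negative value narrows the standard errors of some contrasts.

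In OR1, all 42 differences with olaparib were negative, from -0.46 to -0.03, with a median of -0.30 against -0.01 over all tested genes. None of the 42 passed, where 0% of all genes did in this comparison (0 of 16330). Unadjusted, 4 members were lower and 0 higher at p under 0.05, where 1.59% of all genes were lower and 4.29% higher. In 8 members every treated library was below every control and in 0 above, against 7.81% and 7.43% of all genes. Checkpoint genes had a median of -0.36 and cytokinesis genes of -0.34, while centromere and kinetochore genes had -0.24.

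Racgap1, the centralspindlin GTPase-activating protein that positions the cleavage furrow, was at 7.63, 7.24 and 7.38 in control OR1 and 7.02, 6.75, 6.97 and 7.09 with olaparib. The groups did not overlap (-0.44, SE 0.18, adjusted p = 0.781). The chromokinesin Kif4 was at 6.32, 5.74 and 6.03 against 5.71, 5.33, 5.46 and 5.67, and cyclin B2, Ccnb2, at 6.26, 6.06 and 6.13 against 5.93, 5.61, 5.69 and 5.95. Both were lower in every treated library, by differences of -0.46 and -0.33. Aurkb differed by -0.40, Tpx2, a spindle assembly factor and activator of Aurora A, by -0.40 and Cdk1 by -0.34, each with overlapping groups. Mki67 gave -0.42, Top2a -0.44, Plk1 -0.36, Cdc20 -0.24 and Ccnb1 -0.21, with adjusted p of 0.899 to 0.965. Leaving out control OR1 library 1, the highest for 14 members, moved the median to -0.22. Within series ABA45, where control library 3 is the only OR1 control and was assumed to vary like the other groups, it was -0.35, with 0 called.

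In OR2, 38 of 42 differences with olaparib were positive with a median of 0.25, and 0 passed, where 0% of all genes did. The count at an unadjusted p under 0.05 was also 0, where 6.64% of all genes passed in either direction. Only Bub1b, the BubR1 checkpoint protein, and Spc25 had all treated libraries above both controls, and 0 members had them below, against 10.5% and 10.6% of all genes. Bub1b was at 5.12 and 5.26 in controls and 5.37, 5.45 and 6.32 with olaparib. Treated library 3 stood well above the other two (0.53, SE 0.30, adjusted p = 0.826). Spc25 was at 5.10 and 5.19 against 5.59, 5.48 and 5.69 (0.44, adjusted p = 0.82). Tpx2, Ube2c, Ect2 and the spindle protein Nusap1 gave 0.43, 0.45, 0.49 and 0.37, all overlapping. Without control OR2 library 2 the median over the members was 0.12. Without treated OR2 library 3 it was 0.03, and Cdk1, Ccnb1, Plk1, Aurkb, Cdc20 and Top2a had differences below 0. That library also had the lowest mean of mitochondrially encoded genes, 9.81 against 10.39 to 12.31 in the other 18, and the highest Epcam, and the part of these in the result was not tested. Within series ABA45, which leaves out treated library 1, the median was 0.30.

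The response in OR1 was compared with that in MDA594 by an interaction contrast. All 42 differences of responses were negative, from -0.99 to -0.02, with a median of -0.64 against 0.00 over all tested genes. The limma count was again 0 of 42, where 0% of all genes passed. Of the members, 20 were lower and 0 higher at an unadjusted p under 0.05, where 4.16% of all genes were lower and 3.17% higher. Nuf2 gave -0.99 (SE 0.34, adjusted p = 0.673), Bub1 -0.81, Cdk1 -0.64, Ccna2 -0.91, Spc25 -0.73 and Mad2l1, the checkpoint protein that inhibits Cdc20, -0.77. Top2a gave -0.98, Plk1 -0.77, Aurkb -0.52, Ccnb1 and Cdc20 -0.43 each and Mki67 -0.35. Within series ABA45, again with 1 OR1 control, the median was -0.84 with 3 called, and with a term for the title number -0.88 with 11 called, in the same fits with a negative code correlation. The MDA594 part of the title number fit again sets 1 code against 1 code. Without the 4 libraries with muscle reads, which leaves control OR1 library 2 alone in its group, the median was -0.46.

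For OR2 against MDA594 the responses differed by a median of -0.09, with 12 of 42 positive and 0 called, where 0% of all genes passed. Birc5 alone was lower at an unadjusted p under 0.05, by a difference of -0.76 (SE 0.32, adjusted p = 0.77), and 0 members were higher, where 3.05% of all genes were lower and 3.11% higher. Birc5 was at 7.27 and 6.87 in control OR2 and 6.76, 6.67 and 6.94 with olaparib, so that its group mean was higher in controls, unlike in MDA594. Cenpe gave 0.57, Nuf2 -0.51, Anln -0.39, Cdk1 -0.25 and Prc1, which bundles the central spindle, -0.52. The median was 0.06 without treated OR2 library 2 and -0.26 without library 3. The intervals were wide, for example -0.82 to 0.32 for Cdk1.

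**Figure D3:**
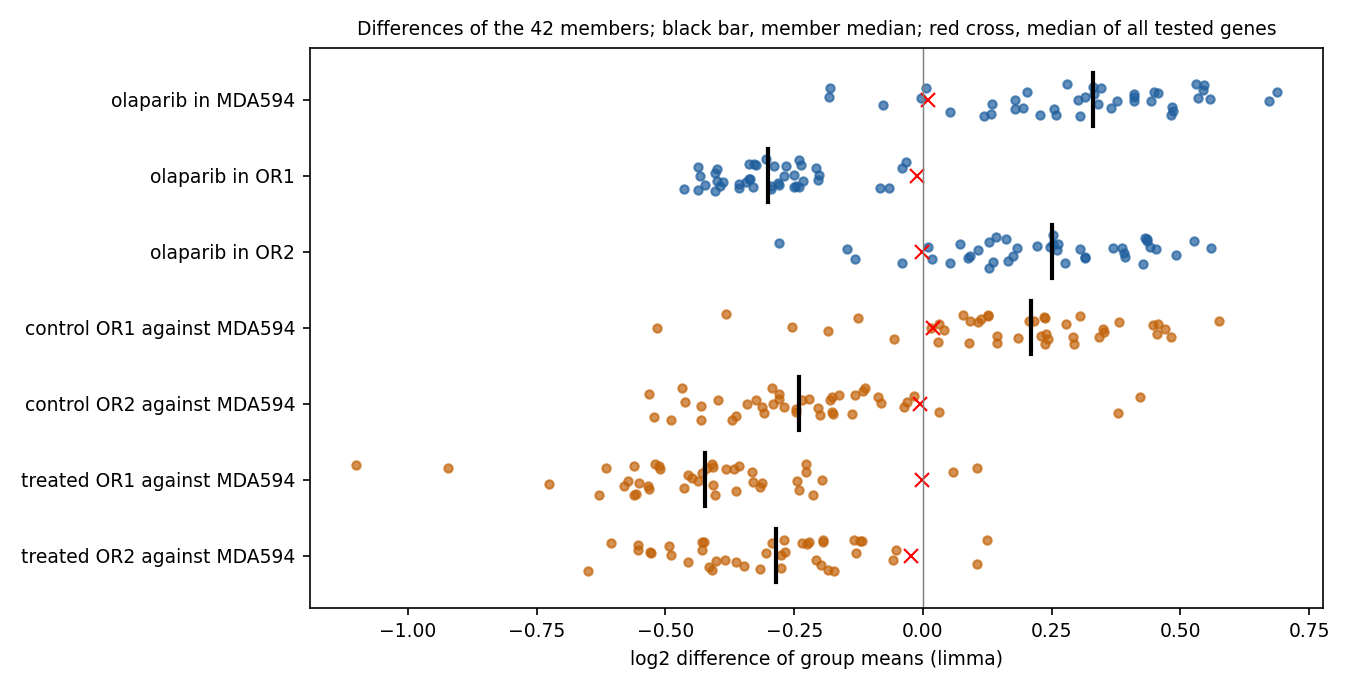
Log2 difference of each of the 42 members (points) in the 3 treatment comparisons (blue) and the 4 comparisons between tumours (orange), with the member median (black bar) and the median of all tested genes (red cross). The members lie mostly to the right in treated MDA594 (median 0.33), all to the left in treated OR1 (median -0.30) and mostly to the left for treated OR1 against treated MDA594 (median -0.42).

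Control OR1 was compared with control MDA594 next. Of the 42 members 36 were positive, with a median of 0.21, and 0 passed, where 0.11% of all genes did. Birc5 alone was higher at an unadjusted p under 0.05 (0.45, adjusted p = 0.358) and 0 members were lower, where 6.39% of all genes were higher and 7.18% lower. In 3 members, Birc5, Prc1 and Top2a, every OR1 library was higher, and in Sgo1 every one was lower, against 10.4% and 9.85% of all genes. Top2a was at 8.68, 8.74, 8.10 and 8.20 in control MDA594 and 9.48, 8.77 and 8.95 in control OR1. The gap was 0.03 at its narrowest, and the difference was 0.58 (SE 0.29, adjusted p = 0.403). Nuf2 gave 0.48, the centralspindlin kinesin Kif23 0.46, Anln 0.45 and Aurkb 0.31. Mki67 (0.03), Plk1 (0.04), Cdk1 (0.08), Ccnb1 (-0.13) and Cdc20 (-0.18) lay near 0. The median was 0.09 without control OR1 library 1 and 0.06 without the libraries with muscle reads. Within series ABA45 it was 0.26, and Nuf2 and Spc25 were called. There control OR1 is library 3 alone, with no spread of its own, and control MDA594 is a pair of libraries of 1 code.

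Control OR2 was lower than control MDA594 in 39 of 42 members, with a median of -0.24 and 0 called, where 0.214% of all genes were called. Unadjusted, 0 members had a p under 0.05, where 10.6% of all genes passed in either direction. In 11 members both OR2 libraries were below all 4 MDA594 libraries, and in Top2a they were above, against 12% and 12.6% of all genes. Cenpa was at 6.62, 6.21, 6.16 and 6.28 against 5.9997 and 5.62. Both OR2 libraries were below (-0.52, SE 0.26, adjusted p = 0.513). Nusap1 gave -0.43, Cdc20 -0.43, Cenpe -0.47 and the hyaluronan receptor and spindle protein Hmmr -0.40, while Birc5 gave 0.38. Cdk1 differed by -0.28, Ccnb1 by -0.37, Mki67 by -0.31, Plk1 by -0.24, Aurkb by -0.20 and Top2a by 0.42. The median was -0.14 without control OR2 library 2. Within series ABA45 it was -0.09, and Top2a passed at 0.75 (adjusted p = 0.0462), in a fit with a code correlation of -0.30 that sets 1 code against 1 code. With a term for the title number the median was -0.53, Top2a turned to -0.50 and Mki67 to 0.56.

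Between treated tumours the members were lower in OR1 than in MDA594 for 40 of 42, with a median of -0.42. These comparisons share the treated MDA594 libraries with the treatment comparison in that tumour. None of the 42 passed, where 0.545% of all genes did. At an unadjusted p under 0.05, 17 members were lower and 0 higher, where 8.43% of all genes were lower and 9.58% higher. In 31 members every treated OR1 library was below every treated MDA594 library, and in 0 above, against 15.9% and 16.2% of all genes. The entry kinases and cyclins gave 5 of the 17, all but Ccnb2, and the anaphase and cohesion genes had the lowest median, -0.61.

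Cdk1 was at 6.41, 6.79 and 6.59 in treated MDA594 and 6.23, 5.87, 5.94 and 6.03 in treated OR1, without overlap (-0.56, SE 0.17, adjusted p = 0.124). Plk1 was at 6.41, 6.37 and 6.36 against 5.99, 5.23, 5.48 and 5.74. Its lowest MDA594 library was well above its highest OR1 library (-0.73, SE 0.23, adjusted p = 0.135). Cdc20 was at 4.95, 5.12 and 5.19 against 4.63, 4.18, 4.46 and 4.57 (-0.61, adjusted p = 0.16). Mad2l1 gave -0.58, Ccnb1 -0.56 and Top2a -0.41, all without overlap. Mki67 (-0.31) and Aurkb (-0.21) overlapped. Cenpe at 0.06 and Cenpf at 0.11 were the members with a positive difference.

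Calls in this comparison differed between fits. With codes treated as independent, 5 members passed, Ndc80, Cdk1, Plk1, Sgo1 and Mad2l1, at adjusted p of 0.0231 to 0.0473. With only these groups in the fit 30 passed, at a code correlation of -0.38, and within series ABA45 20 passed with a median of -0.52. Without treated OR1 library 3, Ndc80 alone passed.

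Treated OR2 was lower than treated MDA594 in 40 of 42 members, with a median of -0.28 and 0 called, where 1.58% of all genes were. Unadjusted, 9 members were lower and 0 higher at p under 0.05, where 8.29% of all genes were lower and 8.98% higher. In 11 members the OR2 libraries were all below and in 0 all above, against 11.1% and 12.8% of all genes. Cdk1 was at 5.77, 5.98 and 6.46 in treated OR2, against 6.41 or above in treated MDA594 (-0.53, SE 0.18, adjusted p = 0.136). Treated OR2 library 3 alone reached into the MDA594 range. Cenpa was at 6.15, 6.45 and 6.37 against 5.93, 5.51 and 5.59, without overlap (-0.65, SE 0.23, adjusted p = 0.15). Incenp, the scaffold of the passenger complex, gave -0.41, Mad2l1 and Bub1 -0.49 each and Cdc20 -0.55. Ccnb1 gave -0.46, Plk1 -0.42, Aurkb -0.19, Mki67 -0.12 and Top2a 0.12. Without treated OR2 library 3 the median was -0.51 and 2 members, Cdk1 and Cdc20, passed, and without library 2 it was -0.14. With a term for the title number it was -0.68, with Top2a at -0.87 and Mki67 at 0.69. These values again rest on treated OR2 library 1 and control MDA594 library 2, the pair that shares a title number. Within series ABA45 the median was -0.24 with 1 called.

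**Figure D4:**
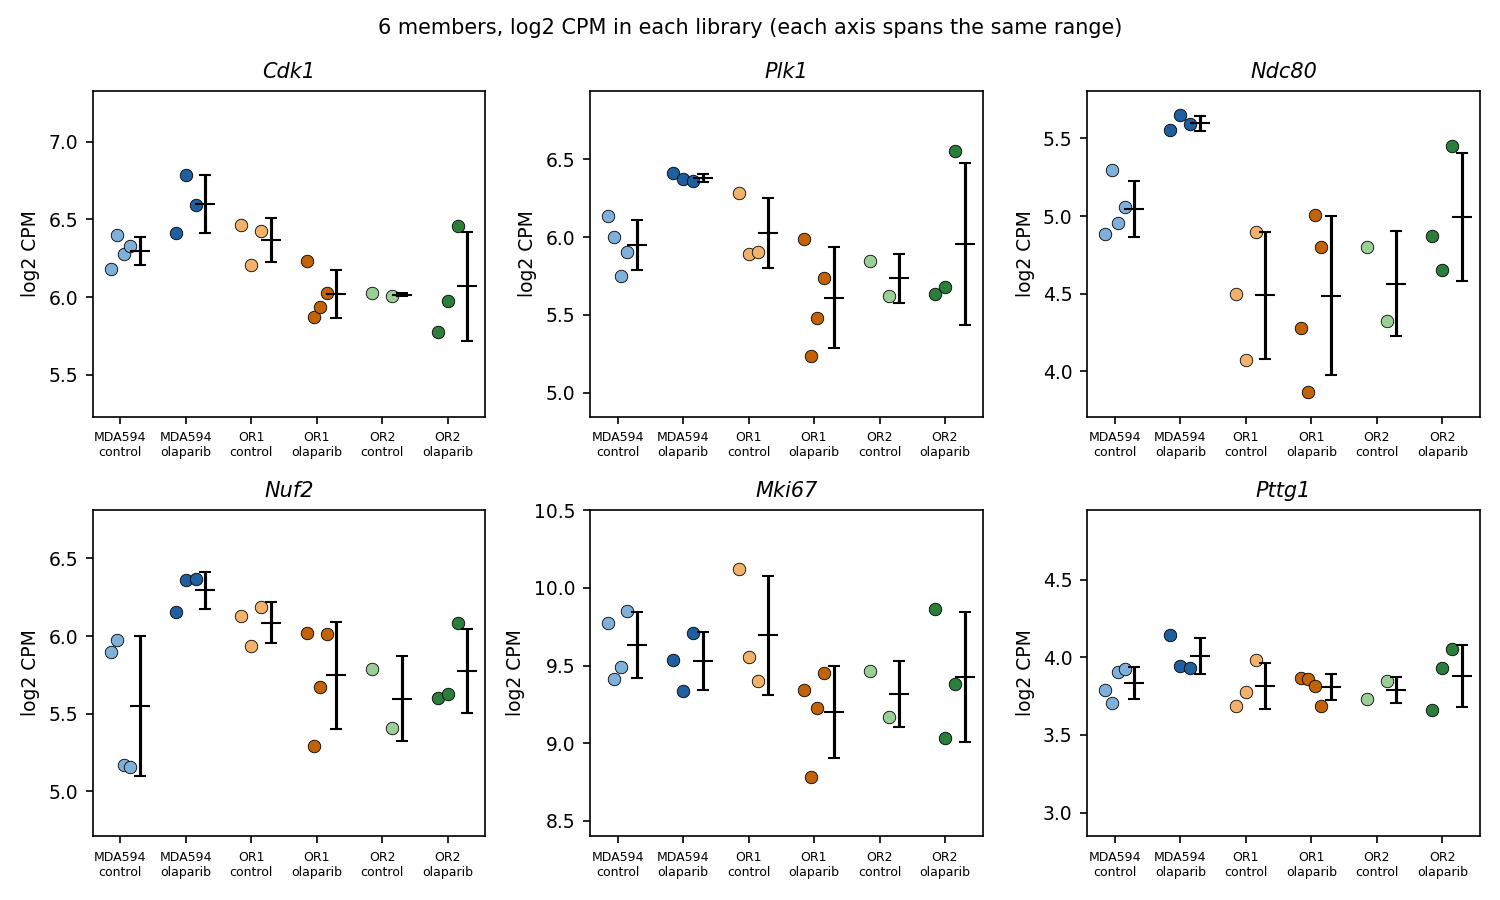
Log2 CPM of 6 members in each library, with group mean and SD as bars, on axes of equal span. Treated MDA594 has the highest group mean for Cdk1, Plk1, Ndc80 and Nuf2 but not for Mki67 (9.34 to 9.71 treated, 9.41 to 9.85 control), and Pttg1 lies between 3.66 and 4.14 throughout.

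Ndc80 (ENSMUSG00000024056.11), the outer kinetochore subunit that grips microtubules, had the difference farthest from 0 of any member in the set. It was at 5.55, 5.65 and 5.59 in treated MDA594 and 4.28, 3.87, 5.005 and 4.80 in treated OR1 (-1.10, SE 0.32, adjusted p = 0.11). The treated OR1 libraries split into low 1 and 2 and higher 3 and 4. Sgo1 (ENSMUSG00000023940.15), shugoshin, which guards centromeric cohesin, was at 5.19, 5.58 and 5.42 against 4.36, 3.84, 4.90 and 4.74 (-0.92, SE 0.34, adjusted p = 0.18), with the same split. Unlike most members, both were also lower in control OR1, at -0.52 and -0.38, where Ndc80 was at 4.50, 4.08 and 4.90 against 4.88 to 5.29 in control MDA594.

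Ndc80 and Sgo1 are the 2 members on chromosome 17, so the other genes of that chromosome were examined, a step chosen after these values were seen. Over 724 tested genes of chromosome 17 the median difference was -0.55 in control OR1 and -0.49 in treated OR1 against MDA594. The medians of the 19 other chromosomes lay between -0.04 and 0.12 and between -0.16 and 0.06. In control OR1, 92.1% of the chromosome 17 genes were negative, and the 87 genes between Sgo1 and Ndc80 had a median of -0.54. For OR2 the chromosome 17 medians were -0.26 in controls and -0.24 with treatment. The other chromosomes lay between -0.30 (chromosome 8) and 0.15 in controls and between -0.13 and 0.06 with treatment, so that in control OR2 chromosome 17 was not the lowest. Between treated and control OR1 the chromosome 17 median was 0.15, with 23.2% of its genes negative, and the other chromosomes lay between -0.13 and 0.09. The same median with olaparib was 0.09 in MDA594 and 0.10 in OR2, both within the range of the other chromosomes.

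Per library, the median deviation of chromosome 17 genes from control MDA594 was -0.75, -0.77 and -0.31 in control OR1. In treated OR1 it was -0.60, -0.73, 0.00 and -0.26. The OR1 libraries at -0.60 or below were those with the lowest Ndc80 in that tumour, and treated OR1 library 3, at 0.00, had the highest. Treated OR1 libraries 2 and 3, at -0.73 and 0.00, share a code. In OR2 the values were -0.07 and -0.48 in controls and -0.11, -0.27 and -0.14 with olaparib, and control library 2 had the lower Ndc80, 4.33 against 4.80. In MDA594 they lay between -0.19 and 0.11. The part of this chromosome-wide difference in the values of Ndc80 and Sgo1 was not tested.

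**Figure D5:**
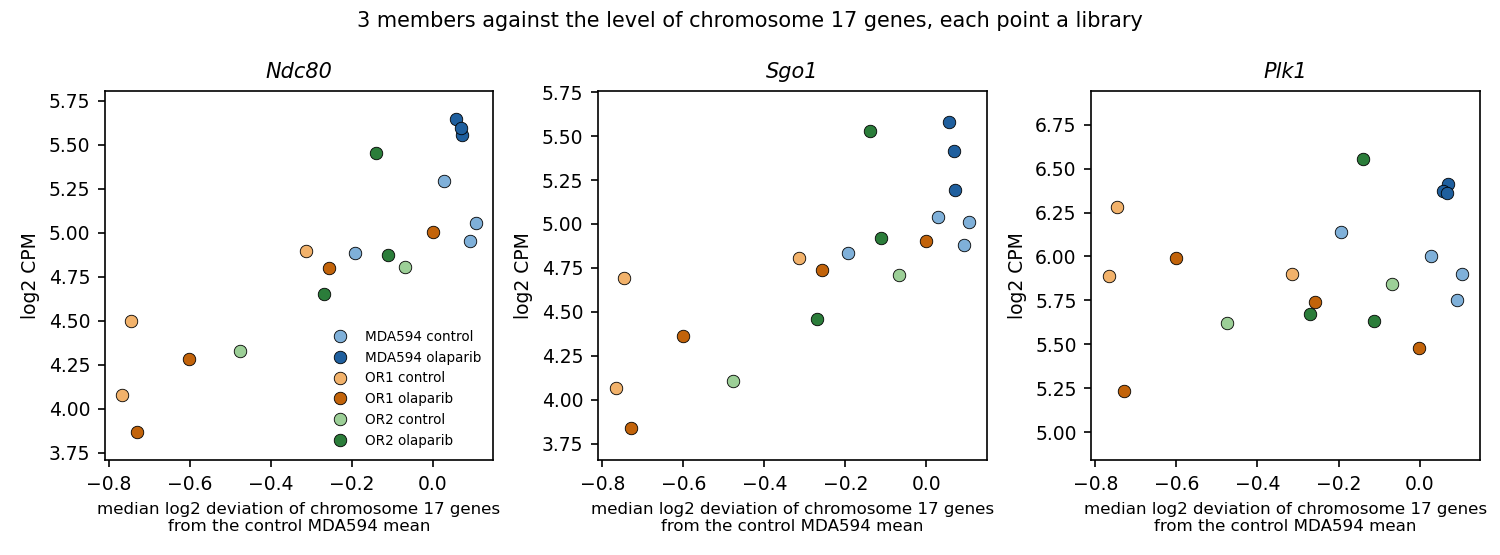
Log2 CPM of Ndc80, Sgo1 (both on chromosome 17) and Plk1 (on chromosome 7) in each library against the median log2 deviation of chromosome 17 genes from the control MDA594 mean. Ndc80 is lowest, at 4.50 or below, in the libraries with a chromosome 17 median of -0.48 or below. Sgo1 shows this less closely. In treated OR1 library 2, with a median of -0.73, Ndc80, Sgo1 and Plk1 are at 3.87, 3.84 and 5.23, each its lowest value. In control OR1 library 1, with a median of -0.75, they are at 4.50, 4.70 and 6.28.

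The other 9 members are given here by their differences. With olaparib in MDA594 the mitotic kinase Aurka gave 0.41, the kinetochore scaffold Knl1 0.56, the kinetochore subunit Spc24 0.37, Cdca8 0.44 and separase, Espl1, which cuts cohesin, 0.33. Ttk gave 0.28, Kif2c 0.30, the cytokinesis kinesin Kif20a 0.35 and Cdca3, a trigger of mitotic entry, 0.05. In OR1 these 9 genes lay between -0.34 (Kif20a) and -0.23 (Spc24), and in OR2 between 0.01 (Cdca3) and 0.39 (Knl1). None passed, and their adjusted p in the comparisons within a tumour ran from 0.327 upward. Knl1 was at 5.16, 5.17, 4.43 and 4.80 in control MDA594 and 5.45, 5.51 and 5.51 with olaparib, without overlap. Aurka was at 5.55, 5.40 and 6.38 in treated OR2, where library 3 held its highest value of all 19 libraries.

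Related genes from lists of other processes were set beside the members. The 40 DNA replication genes had medians of 0.31, -0.40 and 0.29 with olaparib in MDA594, OR1 and OR2, and 0 passed in each. Against MDA594 their medians were 0.41 and -0.30 in control and treated OR1 and -0.13 and -0.14 in OR2. Of the other 31 kinetochore and centromere genes, 1 passed in 1 comparison, where 1.58% of all genes did. This was Cenpw, a histone-fold kinetochore protein, at 5.25, 6.27 and 4.73 in treated MDA594 and 4.13, 3.79 and 3.64 in treated OR2 (-1.48, SE 0.33, adjusted p = 0.034). Every OR2 library was lower, and treated MDA594 library 2 was the highest of all. In treated OR1, Cenpw was at 4.35, 3.68, 3.54 and 4.07, also below every treated MDA594 library. The 15 core subunits of the anaphase-promoting complex had medians of -0.16 to 0.12 over the 7 comparisons of groups, and the 16 cohesin and condensin genes of -0.28 to 0.28, with 0 passed. The 19 genes of mitotic gene transcription, Foxm1, Mybl2 and DREAM subunits among them, had medians of 0.28, -0.11 and 0.25 with olaparib in MDA594, OR1 and OR2. Those of the 16 G1 genes were 0.16, -0.09 and -0.01, and those of the 12 G2 checkpoint genes 0.18, -0.11 and -0.09.

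The regulators of the CHR were measured too. Mybl2 was at 4.77, 4.87, 4.72 and 4.67 in control MDA594 and 5.44, 5.45 and 5.57 with olaparib. The groups were far apart for their spread (0.73, unadjusted p = 0.0095, adjusted p = 0.16). In control OR1 it was at 5.65, 5.13 and 5.55, again above every control MDA594 library (0.69, adjusted p = 0.261). Its response in OR1 was below that in MDA594 by a difference of -1.11 (adjusted p = 0.673). In OR2, Mybl2 was at 4.79 and 4.495 in controls and 5.57, 4.59 and 5.60 with olaparib. Treated OR2 library 2 lay between the controls and the other treated libraries lay above them. Foxm1 gave 0.16 with olaparib in MDA594, -0.30 in OR1 and -0.02 in OR2, with adjusted p of 0.697 or more. Cdkn1a, the p21 inhibitor of cyclin-dependent kinases, gave 0.76, 0.96 and -0.74, none of which passed (adjusted p of 0.364, 0.808 and 0.871).

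Levels of host-cell markers were set beside the members, and 0 of the markers passed the adjusted test in limma with olaparib in any tumour. The 12 macrophage markers, none at 0 reads in any library with a group, summed to 376 to 588 CPM in control MDA594 and 956 to 1336 with olaparib. They summed to 187 to 294 in control OR1 and 387 to 1036 with olaparib, and to 651 to 707 and 392 to 1537 in OR2. The sums did not overlap between control and treated libraries in MDA594 or in OR1, and were higher with olaparib in both. There 9 and 8 of the 12 were higher at an unadjusted p under 0.05 in limma, where 8.71% and 4.29% of all genes were. The 11 T cell markers, also without a 0, summed to 5.23 to 35.9 CPM in control MDA594 and 26.9 to 48.4 with olaparib. They summed to 6.5 to 9.89 in control OR1 and 12.98 to 20.35 with olaparib, and to 3.15 to 5.16 and 5.78 to 32.49 in OR2. Control and treated sums of the T cell markers overlapped in MDA594 alone. All 11 differences with olaparib were positive in each tumour, with medians of 1.67 in MDA594, 1.31 in OR1 and 1.71 in OR2. The sum of 11 skeletal muscle markers ran from 2.32 CPM to 1574 in treated MDA594 library 3, and 5 of them were at 0 reads in at least 1 control MDA594 library. Without the 4 libraries with muscle reads, the treatment medians of the members were 0.28 in MDA594, -0.17 in OR1 and 0.25 in OR2. Medians of other lists with olaparib were set beside these. The 7 red cell genes had a median of 0.01 in MDA594, -2.13 in OR1 and -3.12 in OR2, with 6 of 7 lower at an unadjusted p under 0.05 in each of the resistant tumours. Of all genes, 1.59% were lower at that level in OR1, and 549 of 16330 in OR2. The 13 mitochondrially encoded genes were all lower in MDA594 (median -0.61) and all higher in OR1 (0.72), and had a median of -0.09 in OR2. Of the neutrophil list 8 genes were tested, with medians of -0.9997, 1.04 and -1.67. The 11 fibroblast genes were all higher in MDA594 (0.94) and in OR1 (0.82), with -0.19 in OR2. Medians of 10 endothelial genes were 0.74, 0.37 and -0.14, and those of the 6 tested NK cell genes 1.23, 1.42 and 0.38. At an unadjusted p under 0.05 there were 0 mitochondrially encoded and 0 endothelial genes in any tumour. In OR1, 1 fibroblast and 1 NK cell gene were higher at that level, with 0 in MDA594 and OR2. Of the neutrophil genes, 3 were lower in MDA594, 3 higher in OR1 and 3 lower in OR2. The part of these cells and of mitochondrial RNA in the members' values was not tested.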

How the data were processed

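Poly(A) RNA of breast tumour allografts was sequenced with a stranded kit, per the labels. The authors deposited log2 CPM per gene, made with STAR 2.7.10a, RSEM 1.3.1 and limma on GRCm39, per the submitters' processing notes. The annotation, gene filter and normalisation are not given in the sources used here. Each deposited log2 value equalled log2 of reads plus 0.5 over a scaled library size, and reads came out whole within 0.01 for every value up to 1000 reads. Depth was 36.8 to 118 M reads.

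Differences came from limma 3.58.1 in R 4.3.3, with 1 mean for each of 6 groups, a variance trend and a correlation of 0.404 between libraries of a code, leaving 13 residual degrees of freedom. Tests were two-sided. Genes above 0 log2 CPM in at least 2 libraries were tested (16330, with 81 removed), and p-values were Benjamini-Hochberg adjusted over them at 0.05. The fit was tested on simulated data. Fitted differences weight libraries by the correlation and can depart from differences of means. Named in each comparison were the members with the smallest p, up to 6, and always Mki67, Top2a, Cdk1, Ccnb1, Plk1, Aurkb and Cdc20. The members, lists and tests were chosen with earlier results of these data known. Promoters came from a RefSeq table on GRCm38.p6, matched by symbol, and gene coordinates on GRCm39 were not used. Chromosomes came from a RefSeq gene table of the same build by symbol for 14559 tested genes. The alternatives covered the filter, the added constant, scaling, the code correlation, library-name series, title number, groups in the fit, variance trend, voom weights and each library left out.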

Additional observations from a re-analysis of the deposited data

Results flagged for a closer look

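Of 84 member and group combinations with 4 libraries, 2 had a library far from the other 3 by Dixon's criterion, and chance gives about 1 in 20. Kif11, the kinesin that pushes spindle poles apart, was at 6.85 in treated OR1 library 2, with the other 3 libraries between 7.18 and 7.25. Anln was at 6.98 in treated OR1 library 4, with the others between 6.33 and 6.42. No member's response differed between tumours by the adjusted interaction test in limma (0 called).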

How the results depend on the processing

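With 42 members and 9 comparisons, 3271 alternative values of named members kept their direction and side of the threshold, 45 newly passed it and 44 changed sign. The cause of these changes was not tested. Counts of members called were 0 under voom weights, as in the reported fit. In MDA594 with olaparib, 16 passed in ABA45 libraries alone and 7 once the title number was a term, and both counts rest on controls of 1 code. For treated OR1 against treated MDA594, 5 passed with codes as independent, 20 in ABA45 libraries alone, 30 with the compared groups alone, and 0 to 1 with each library left out. ABA45 libraries alone gave 2 in control OR1, 1 in control OR2, 1 in treated OR2 and 3 for the response of OR1, which had 11 with the title number. Leaving out each library gave 0 to 2 in treated OR2. Medians with the title number were -0.53 in control OR2 and -0.68 in treated OR2, both resting on the pair of libraries that joins these tumours, and -0.88 for the response of OR1. With each library left out they ran from 0.034 to 0.37 for olaparib in OR2 and from -0.51 to -0.14 in treated OR2.

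Most sign changes were of values near 0, and those of Mki67 and Top2a in OR2 with the title number were not. Mki67 with olaparib in MDA594 was 0.022 after quantile normalisation and 0.066 with the series in the model. With olaparib in OR2, Mki67 was -0.11 in ABA45 libraries alone and -0.11 with the title number. Leaving out each library there gave -0.11 to 0.30 for Mki67, -0.13 to 0.42 for Ccnb1, -0.082 to 0.47 for Top2a, -0.14 to 0.20 for Cdk1, -0.079 to 0.38 for Plk1, -0.074 to 0.27 for Aurkb and -0.22 to 0.23 for Cdc20. In control OR1, Mki67 was -0.0001 with 1 value per code, -0.27 in ABA45 libraries alone and -0.069 without the libraries with muscle reads, an alternative chosen after seeing the data, where Cdk1 was -0.089 and Plk1 -0.089. The title number gave Ccnb1 0.17 and Cdc20 0.27, resting on treated OR1 library 1 and control MDA594 library 1 as the pair that joins these tumours. Leaving out each library gave Mki67 -0.15 to 0.21 and Plk1 -0.074 to 0.12. With the title number, control OR2 had Mki67 at 0.56 and Top2a at -0.50, and treated OR2 had them at 0.69 and -0.87. Leaving out each library gave -0.34 to 0.074 and -0.20 to 0.34 in treated OR2. For the response of OR2, the series in the model gave Mki67 -0.046 and Aurkb -0.0053, and Cdc20 was 0.051 in ABA45 libraries alone and 0.091 with the title number. Leaving out each library gave -0.19 to 0.15 for Aurkb, -0.36 to 0.19 for Ccnb1, -0.027 to 0.38 for Mki67 and -0.41 to 0.037 for Cdc20.

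The labels give no replicate numbers, and libraries that share a code lie within a group. Control and treated libraries of a tumour do share numbers in their titles, whose meaning is not given, and the fit with the title number as a block is the one reported above for it. With the compared groups alone, the estimate of the code correlation failed for olaparib in OR2 and for treated OR2, and codes were independent there. Every member had 555 reads or more in each library, groups held 2 to 4 libraries, and control OR2 has 1 code.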
